A study of Homo sapiens with 22 samples.

Results

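The comparison set HN-6 cells given an siRNA against SMYD3 beside HN-6 cells given a negative control siRNA. HN-6 is an established human squamous carcinoma line from the head and neck. The members are all 6 libraries of the count table made for this siRNA, out of 22 libraries in the series: 3 with the SMYD3 siRNA and 3 with the control siRNA. Every gene in the table was taken. Cells of both groups were held with siRNA for 72 h and received human interferon-β at 1000 U/ml for the last 24 h, so the values describe the siRNA under interferon and there was no library without it. A single SMYD3 siRNA was used, and an effect of its sequence on other transcripts cannot be told apart from an effect of SMYD3. The series also holds a SMYD3 antisense oligonucleotide (ASO) group with its PBS control (2 libraries each) and a UHRF1 siRNA group with its own control siRNA (3 each), in the same line under the same interferon dose. These were used here only to show where the SMYD3 siRNA differed. The replicates are biological replicates, per the design text.

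SMYD3 is a lysine methyltransferase of the SET and MYND domain family, found in nucleus and cytoplasm, and is often overexpressed in carcinomas. Interferon-β binds a receptor whose kinases JAK1 and TYK2 phosphorylate STAT proteins, and these enter the nucleus with IRF9 and switch on genes that carry an interferon-stimulated response element (ISRE). UHRF1 binds hemimethylated DNA behind the replication fork and recruits the maintenance methyltransferase DNMT1. Its transcript belongs to the genes that E2F factors switch on as cells enter S phase.

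Each library held between 32441991 and 54121262 reads in genes. The first principal component held 68.4% of the variance over tested genes and placed the 3 siRNA libraries on 1 side and the 3 controls on the other. The second, with 13.7%, placed same-numbered libraries of the 2 groups close together (scores of 21.3 and 26.5 for number 1, -16.6 and -19.8 for number 2, -5.6 and -5.8 for number 3). Keratins and other epithelial markers summed to 6520 to 6970 CPM (counts scaled to a common library size, with TMM factors that correct each library for its composition) in controls and 4970 to 6040 with the siRNA. All 10 of these markers were detected. The 13 leukocyte markers summed to 23 to 23.9 CPM in controls and 27.4 to 31.5 with the siRNA, with MS4A1 and NKG7 among those at 0 in all 6 libraries. The 9 fibroblast markers summed to 136 to 158 and 222 to 264 CPM, and the 7 endothelial markers to 15.8 to 17.6 and 8.63 to 9.09, with CLDN5 at 0. A mean of 1 CPM was reached by 5 of the leukocyte, 3 of the fibroblast and 4 of the endothelial markers. The part of these marker shifts in the results was not tested.

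SMYD3 transcript fell in all 3 siRNA libraries. SMYD3 (chromosome 1 from 245749342 to 246507312, minus strand, hg38 in GENCODE 29) was at 16.6, 13.2 and 15.5 CPM in the 3 control libraries and at 2.61, 2.98 and 2.95 CPM in the 3 siRNA libraries. The groups were far apart, with every siRNA library well below the lowest control. The log2 fold change was -2.41 ± 0.12 (standard error, SE), a 5.31-fold lower level, with an adjusted p of 3.77e-09 by edgeR's quasi-likelihood F-test. Benjamini-Hochberg adjustment ran over all genes of a fit. This test is behind every adjusted p below, and behind every call except where DESeq2 is named. UHRF1 fell too. UHRF1 (chromosome 19 from 4903080 to 4962154, plus strand) was at 11.3, 8.48 and 9.75 CPM in controls and at 2.56, 2.93 and 3.67 CPM with the siRNA, 3.21-fold lower (log2 -1.68 ± 0.14, adjusted p = 4.24e-07). DNMT1, its partner, named here after its value was seen, did not pass the test: 109, 94.8 and 87.6 against 92, 105 and 106 CPM (log2 0.06 ± 0.09, adjusted p = 0.635).

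Across the genome the response was wide and mostly shallow. Among 18973 genes tested, 9214 (48.6%) passed an adjusted p of 0.05: 4585 (24.2%) rose and 4629 (24.4%) fell, and these shares are the background for every list below. A change of at least 1 on the log2 scale was reached by 609 of the higher and 878 of the lower genes, and a change of at least 2 by 74 and 66. In 45.8% of called genes the change was under 0.5 in size. The 3 siRNA values lay all above or all below the 3 control values in 56.8% of tested genes. The median over all genes was -0.02. The balance of the split depended on scaling: with library totals in place of TMM factors, an alternative chosen after seeing the data, the median of all genes moved by -0.13 and 3113 genes were higher and 6446 lower, so that 32.6% of calls were rises in place of 49.8%.

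**Figure D1:**
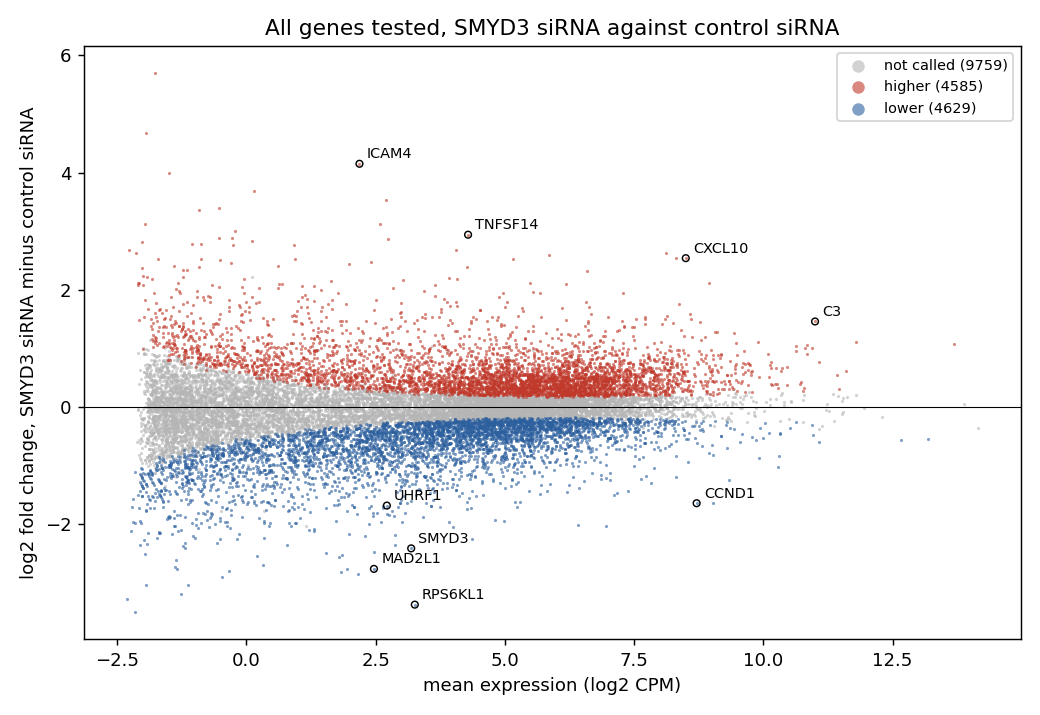
Each point is a tested gene, plotted by its mean expression (log2 CPM, x axis) and its log2 fold change, SMYD3 siRNA minus control siRNA (y axis); red points are called higher (4585), blue points lower (4629) and grey points not called. The called genes lie on both sides of 0, with SMYD3 at -2.41 and the labelled genes among those described in the text.

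The direction of change went with abundance and with the length listed for each gene. In the most abundant of 4 equal classes of genes 41.6% were higher and 18.5% lower, whereas in the least abundant class 10.3% were higher and 16.1% lower. Lengths were those listed per gene in the ASO count table, available for 98.6% of genes tested. In the class with the longest listed lengths 35.8% were higher and 20.4% lower, and in the class with the shortest 11.6% and 22.8%. Protein-coding genes were called more often, at 27.9% higher and 27.4% lower of 14068, than long noncoding RNAs, at 15.1% and 15.9% of 3161. The part of abundance and length in the list counts below was not tested.

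**Figure D2:**
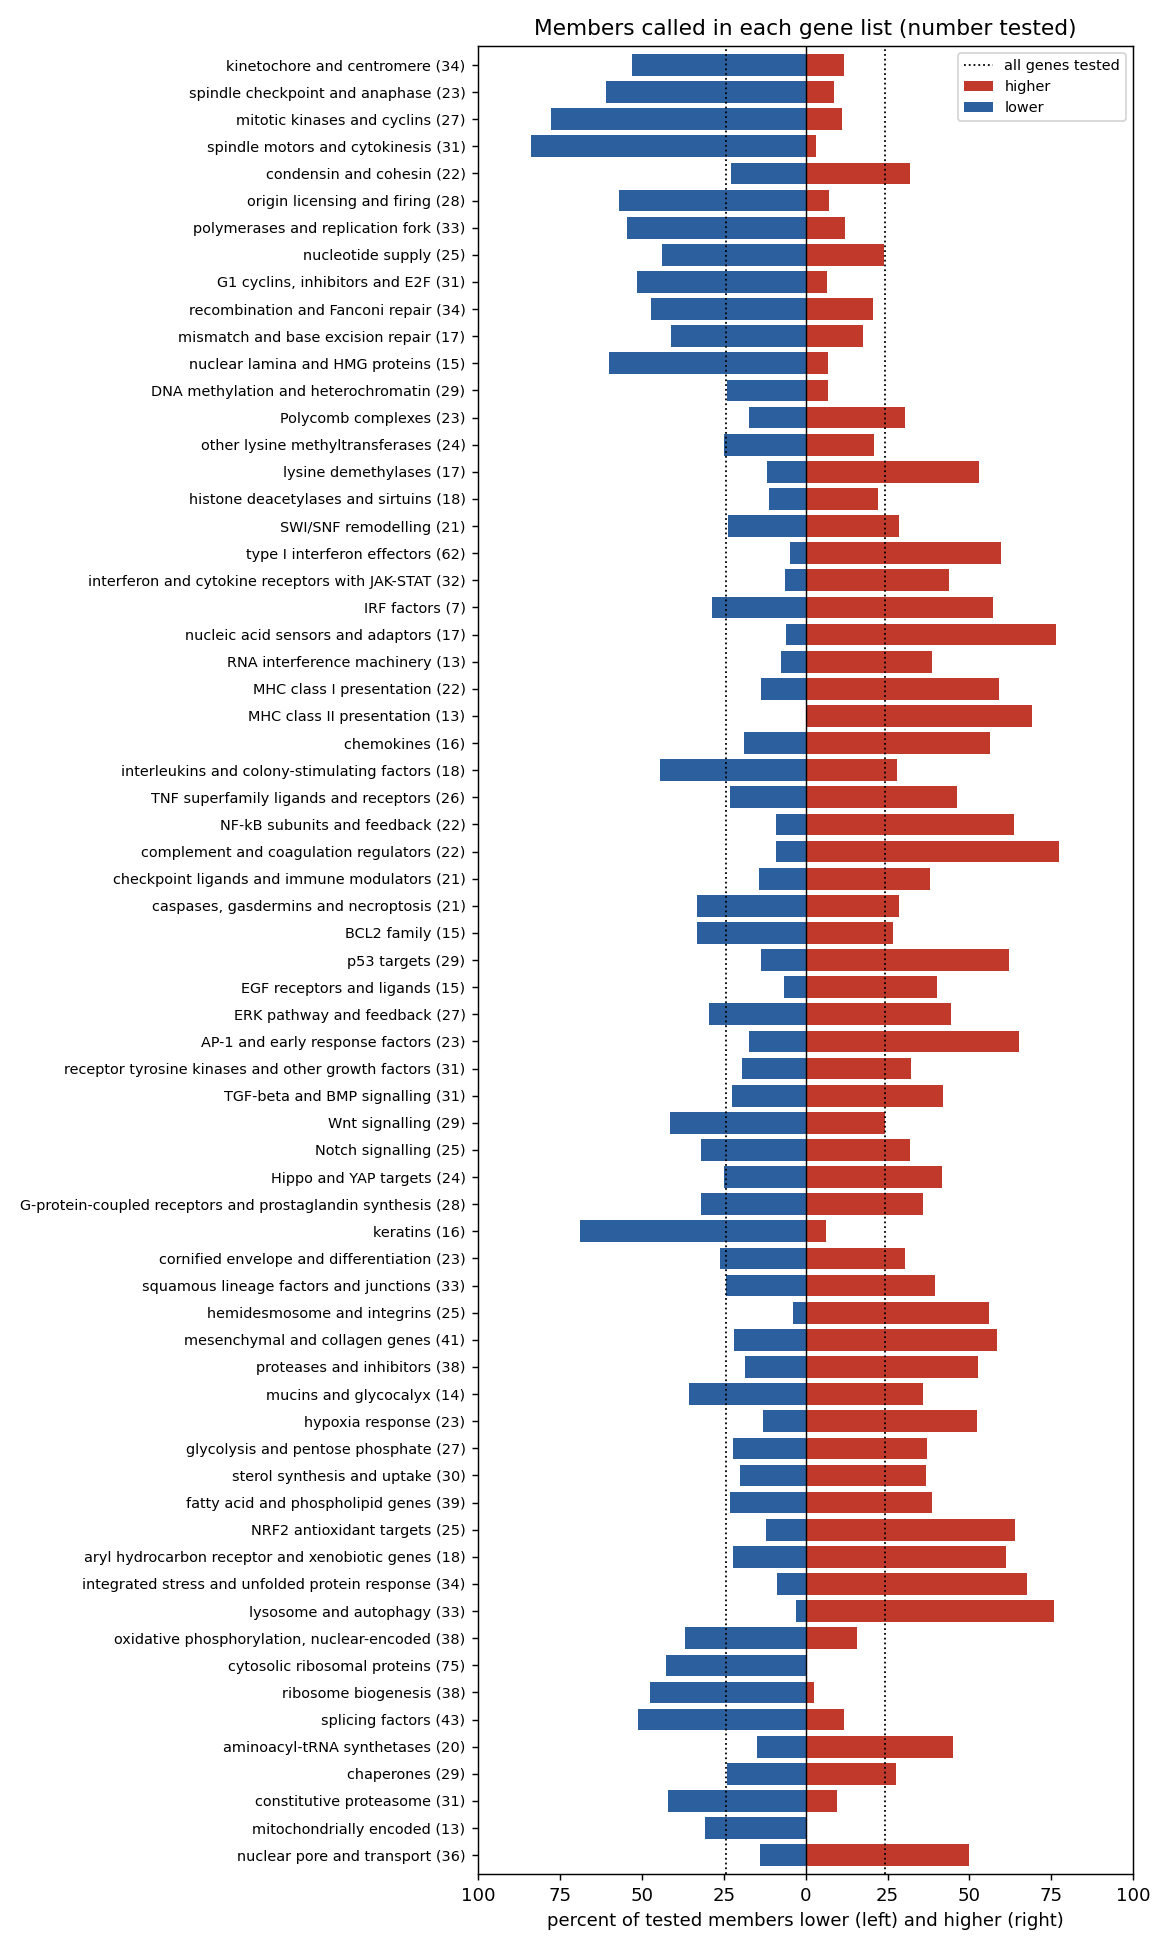
Each row is a gene list with its number of tested members; bars give the percent of tested members called lower (blue, to the left) and higher (red, to the right), and dotted lines the shares over all genes tested (24.4% and 24.2%). Mitotic, replication, keratin and ribosomal lists extend to the left, and lists of interferon effectors, complement, lysosome and stress response genes to the right.

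Genes of mitosis fell together. Entry into mitosis needs cyclin B with the kinase CDK1, the kinetochore then ties chromosomes to spindle microtubules, and the spindle checkpoint holds back the anaphase-promoting complex until all are attached. Of the spindle motor and cytokinesis genes, 26 of 31 fell and 1 rose (median log2 change -1.0). Among mitotic kinases, cyclins and their regulators 21 of 27 fell and 3 rose (median -1.11). Kinetochore and centromere genes fell in 18 of 34 and rose in 4 (median -0.83). Spindle checkpoint and anaphase genes fell in 14 of 23 and rose in 2 (median -0.49). Summed over these 4 lists, the mean share of reads was 0.288% in controls and 0.206% with the siRNA. An exact permutation test gave p = 0.10, the lowest that 3 against 3 allows. In bulk RNA, fewer cells in mitosis and less of each transcript per cell cannot be told apart.

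The checkpoint protein MAD2L1, which inhibits the anaphase-promoting complex, was at 11.7, 8.04 and 8.35 CPM in controls and 1.2, 1.55 and 1.41 CPM with the siRNA. It was 6.76-fold lower (log2 -2.76 ± 0.17, adjusted p = 2.16e-08). CDC20, the activator that MAD2L1 holds in check, was at 44.6, 29.2 and 27 CPM in controls and 5.97, 7.49 and 7.65 CPM with the siRNA (log2 -2.25 ± 0.21, adjusted p = 7.13e-05). NUF2, a subunit of the NDC80 complex that grips microtubules, stood at 8.03, 4.98 and 6.30 against 0.880, 1.08 and 0.895 CPM (log2 -2.76 ± 0.19, adjusted p = 5.44e-08). In all 3 genes every siRNA library lay below every control, and control 1 was the highest control. CENPA, the histone H3 variant that marks centromeres, changed by -2.16 ± 0.17 and SPC25, a partner of NUF2, by -1.67 ± 0.27. Cyclin B1 (CCNB1) went from 31.8, 20.9 and 23.6 CPM to 5.62, 6.62 and 6.18 CPM, 4.15-fold lower (adjusted p = 1.07e-07). The centrosome kinase NEK2 changed by -1.81 ± 0.17 and GTSE1, a microtubule-associated regulator of p53, by -1.78 ± 0.20. Of the spindle genes, DEPDC1 changed by -2.35 ± 0.25, HMMR, a hyaluronan-binding spindle protein, by -2.20 ± 0.17, and the kinesin KIF18B by -1.88 ± 0.14. UBE2C, the ubiquitin carrier of the anaphase-promoting complex, was 3.9-fold lower. A few members went the other way: MASTL, the kinase that restrains the phosphatase opposing CDK1, rose by 0.63 ± 0.08, the microtubule polymerase CKAP5 by 0.37 ± 0.08, SKA2 of the outer kinetochore by 0.48 ± 0.07 and ANAPC5, a scaffold subunit, by 0.29 ± 0.07. With library totals ANAPC5 was no longer called (0.16, adjusted p = 0.0785).

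**Figure D3:**
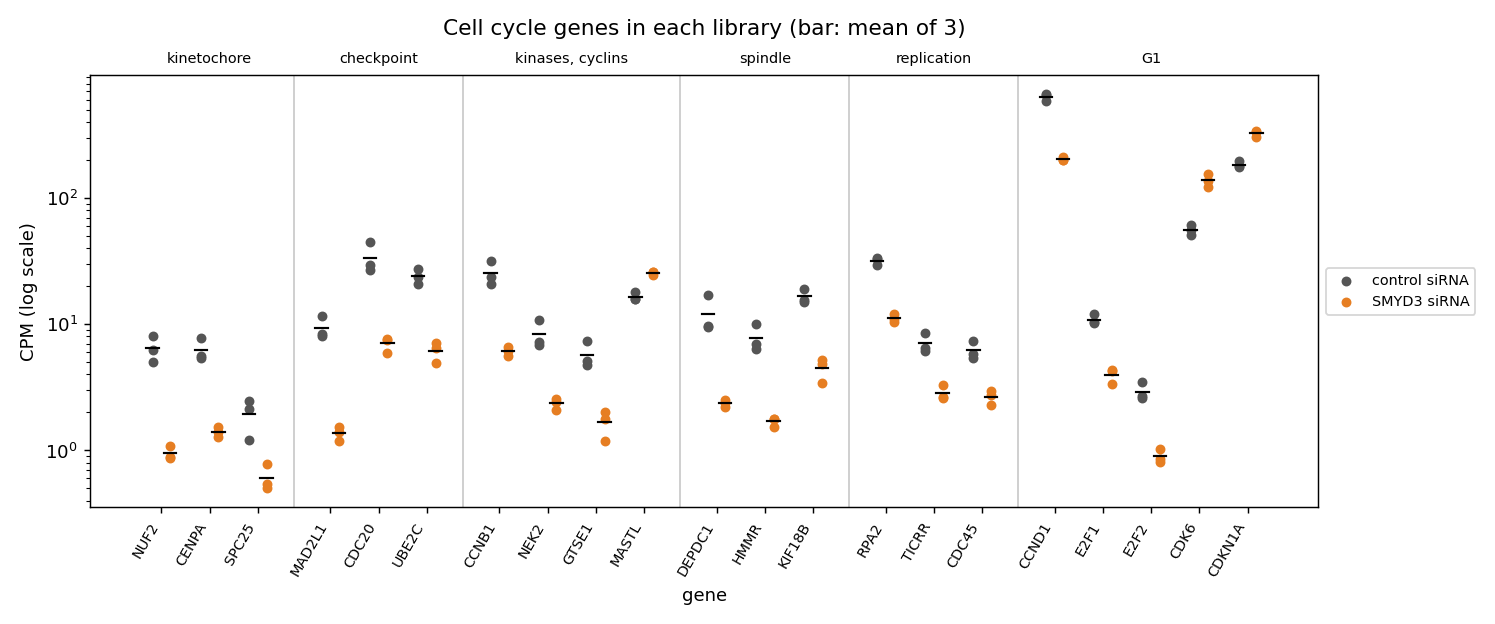
Points are CPM in each library on a log axis, grey for the 3 control libraries and orange for the 3 SMYD3 siRNA libraries, with a bar at each mean; genes are grouped by role. All the siRNA points lie below the controls except for MASTL, CDK6 and CDKN1A, where all lie above.

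Promoters of the mitotic genes, fallen or not, often carried short elements known from cell cycle genes. The cell cycle genes homology region (CHR) is the site at which the DREAM and MuvB complexes bind, often near a CCAAT box. In windows from 250 bases before to 50 after the RefSeq start (GRCh38.p14), searched on both strands, TTTGAA or TTCGAA was present in 67.2% of the 67 fallen members of the 4 mitotic lists that had an entry (of 79), against 16.6% of all 27305 promoters. CCAAT was present in 71.6% against 35.7%. Over all tested members of these lists with an entry, fallen or not, the shares were 58.9% and 66.3%. For the fallen members, in the shorter window of 200 bases before the start, these shares were 38.8% against 11.3% and 67.2% against 28.9%. For all genes that fell, whatever their function, the CHR share was 11.9%, and for all that rose 11.1%. A match is a stretch of letters, not a bound site. Shown here, picked after values were seen, are the promoters of the 3 mitotic genes with the largest falls among those holding both elements, with CHR and CCAAT matches in capitals. They lie at chr4:120066799-120067098 (minus strand) for MAD2L1, chr1:68497033-68497332 (minus strand) for DEPDC1 and chr1:43358731-43359030 (plus strand) for CDC20, each given 5′ to 3′ on the gene's strand.
MAD2L1: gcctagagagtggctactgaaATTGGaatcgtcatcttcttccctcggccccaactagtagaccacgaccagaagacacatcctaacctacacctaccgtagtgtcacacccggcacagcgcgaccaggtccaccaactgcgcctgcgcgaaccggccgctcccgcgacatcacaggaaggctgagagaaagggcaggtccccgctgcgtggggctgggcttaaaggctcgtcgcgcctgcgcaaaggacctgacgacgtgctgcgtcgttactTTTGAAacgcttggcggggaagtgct
DEPDC1: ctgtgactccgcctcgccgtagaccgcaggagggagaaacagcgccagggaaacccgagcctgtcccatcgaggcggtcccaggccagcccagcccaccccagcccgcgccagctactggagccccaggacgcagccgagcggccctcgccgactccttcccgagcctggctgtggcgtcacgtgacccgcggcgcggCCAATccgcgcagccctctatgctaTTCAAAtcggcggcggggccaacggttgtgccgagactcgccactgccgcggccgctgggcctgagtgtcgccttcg
CDC20: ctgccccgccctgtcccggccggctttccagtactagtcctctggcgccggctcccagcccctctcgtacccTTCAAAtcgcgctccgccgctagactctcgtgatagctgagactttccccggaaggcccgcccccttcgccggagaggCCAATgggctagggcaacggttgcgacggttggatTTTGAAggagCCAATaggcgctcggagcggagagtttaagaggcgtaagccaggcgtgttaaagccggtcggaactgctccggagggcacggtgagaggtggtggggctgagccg

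DNA replication genes fell more often than they rose, with smaller changes. Of the origin licensing and firing genes 16 of 28 fell and 2 rose (median -0.36). Polymerase and replication fork genes fell in 18 of 33 and rose in 4 (median -0.30). RPA2, a subunit of the protein that coats single-stranded DNA, was at 33, 29.3 and 33.4 CPM in controls and 11, 10.4 and 12.1 CPM with the siRNA, 2.86-fold lower (adjusted p = 1.75e-08), and the groups did not overlap. TICRR, CDC45 and MCM10, which fire origins, changed by -1.30 ± 0.15, -1.22 ± 0.15 and -1.09 ± 0.15. RFC1, the large subunit of the clamp loader, rose by 0.50 ± 0.09, and ORC5 by 0.28 ± 0.09, a call that was lost with library totals (0.15, adjusted p = 0.209) and without control replicate 2. Recombination and Fanconi genes fell in 16 of 34 and rose in 7, with RAD54L at -1.33 ± 0.22 and UBE2T, the Fanconi ubiquitin carrier, at -1.29 ± 0.10. Nucleotide supply genes fell in 11 of 25 and rose in 6, among them thymidylate synthase (TYMS, -0.94 ± 0.13) and thymidine kinase 1 (TK1, -0.94 ± 0.19). Condensin and cohesin genes were mixed, 7 higher and 5 lower of 22: the condensin subunits NCAPH and NCAPG changed by -1.32 ± 0.19 and -1.24 ± 0.14, whereas the cohesin ring subunit SMC1A rose by 0.70 ± 0.08.

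E2F factors bind in the promoters of replication genes. An E2F site, searched on both strands as TTTGGCGC, TTTCCCGC, TTTGCCGC or TTTCGCGC, was present in 50% of the 22 origin genes with an entry and in 32.1% of the 28 fork genes, against 3.33% of all promoters, and in 27.3% and 25% against 2.32% in the shorter window. RPA2, TICRR, CDC45 and MCM10 fell more than the gene shown here but lacked an entry or such a match. GINS2, a subunit of the replicative helicase, had the largest fall among genes with both (-0.90 ± 0.11). Its promoter at chr16:85688905-85689204 (minus strand) is shown with the match in capitals.
GINS2: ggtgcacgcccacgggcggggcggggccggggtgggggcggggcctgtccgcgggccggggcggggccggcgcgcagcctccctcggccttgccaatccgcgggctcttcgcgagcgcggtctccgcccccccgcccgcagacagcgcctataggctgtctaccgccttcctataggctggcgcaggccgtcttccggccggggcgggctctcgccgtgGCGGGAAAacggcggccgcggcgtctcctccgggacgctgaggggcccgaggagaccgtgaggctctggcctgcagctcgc

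The control of G1 changed in opposite directions at different members. 16 of 31 tested G1 genes fell and 2 rose (median -0.31), with 1 listed gene, CCND2, below the read filter. Cyclin D1 (CCND1), which starts the G1 kinases, stood at 660, 649.9 and 588 CPM in controls and 199.6, 199.8 and 209 CPM with the siRNA. That is 3.12-fold lower (log2 -1.64 ± 0.08, adjusted p = 4.12e-09). E2F1 changed by -1.45 ± 0.12 and E2F2 by -1.70 ± 0.18. CDK6, a partner of cyclin D, rose from 61.2, 55.5 and 50.5 CPM to 156, 123 and 136 CPM (2.48-fold, adjusted p = 9.99e-08). The CDK inhibitor p21 (CDKN1A) rose from 180.2, 195 and 176 to 306, 331 and 339 CPM (1.77-fold, adjusted p = 1.25e-06). No control library overlapped a siRNA library in these 5 genes. Of the p53 targets 18 of 29 rose and 4 fell, with the stress sensors SESN2 and SESN1 up by 0.97 ± 0.09 and 0.87 ± 0.08.

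Nuclear lamina and HMG protein genes fell in 9 of 15 and rose in 1. HMGA1, which binds AT-rich DNA, was at 948, 772 and 650.4 CPM in controls and 206, 282 and 272 CPM with the siRNA, 3.12-fold lower (adjusted p = 4.32e-06). HMGB2 changed by -1.17 ± 0.11 and lamin B1 (LMNB1) by -1.16 ± 0.12, and HMGA2 rose by 0.43 ± 0.08. Of the DNA methylation and heterochromatin genes 7 of 29 fell and 2 rose, shares of 24.1% and 6.9% against the background of 24.4% and 24.2%. Beside UHRF1, the remodeller HELLS changed by -0.47 ± 0.10, and TET2, which oxidises methylated cytosine, rose by 0.45 ± 0.09. Lysine demethylases had 9 rises and 2 falls among 17 members, with KDM5A up by 0.57 ± 0.07, but 3 were higher when library totals were used. The methyltransferases outside Polycomb were split, 5 higher and 6 lower of 24, with NSD2, which writes H3K36 methylation, at -1.09 ± 0.09 and KMT2C, an H3K4 methyltransferase, at 0.73 ± 0.07.

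Interferon effector genes rose, by less than a doubling for most. Of 62 listed effectors all were tested, 37 rose and 3 fell, with a median of 0.35. GBP5, a guanylate-binding protein, had the largest rise: 20.4, 16.3 and 14.2 CPM in controls and 47.8, 45.4 and 39 CPM with the siRNA (2.59-fold, log2 1.38 ± 0.12, adjusted p = 6.91e-07). RSAD2 (viperin), an antiviral enzyme, went from 299.9, 338 and 298 to 822, 781 and 668 CPM (2.43-fold, adjusted p = 1.27e-07). IFIT2, which binds viral RNA, went from 1023, 1163 and 1044 to 2322, 2152 and 1820 CPM (1.95-fold, adjusted p = 4.68e-06). In these 3 genes the groups did not overlap, and siRNA 3 was the lowest of the siRNA libraries. IFI44L fell, from 638, 649 and 745 to 577, 417 and 449.8 CPM (log2 -0.49 ± 0.11, adjusted p = 0.00236). ISG20 and IFI27 were the other members that fell, and with library totals 10 members were lower. Of the signal carriers, named here after their values were seen, STAT2 was at -0.02 ± 0.08 (adjusted p = 0.853) and IRF9 at -0.19 ± 0.11 (adjusted p = 0.176). ISG15, the ubiquitin-like modifier and likewise named afterwards, was at 0.11 ± 0.09 (adjusted p = 0.375).

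Genes of cytokine receptors and of nucleic acid sensors were mostly higher or not called. Interferon and cytokine receptor genes with JAK-STAT members gave 14 rises and 2 falls out of 32. IL1RAP, the shared subunit of interleukin-1 family receptors, was 2.77-fold higher (54.1, 49.7 and 50.2 CPM in controls, 153, 131 and 144 CPM with the siRNA). IL6R rose by 1.34 ± 0.11 and IFNGR1, which binds interferon-γ, by 0.88 ± 0.07. JAK3 fell (-0.62 ± 0.10). Of the nucleic acid sensors and adaptors 13 of 17 rose and 1 fell. DDX58, which encodes the RNA sensor RIG-I, rose by 0.79 ± 0.09 and the kinase gene IKBKE by 0.69 ± 0.09. TMEM173, which encodes STING, was called lower at -0.20 ± 0.08 (adjusted p = 0.0428), a call that was lost when any of 5 of the 6 libraries was left out or when DESeq2 was used. TLR7 rose on few reads: 10, 6 and 5 in the controls and 28, 21 and 22 with the siRNA.

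Antigen presentation genes mostly rose, and the 3 class I genes that fell encode immunoproteasome subunits or its activator. MHC class I molecules show peptides cut by the proteasome, moved by TAP and trimmed in the endoplasmic reticulum. Of 22 listed class I genes 13 rose and 3 fell. The trimming peptidase ERAP1 rose from 71.2, 64.8 and 61.4 to 187, 199.5 and 184 CPM (2.89-fold, adjusted p = 4.97e-09), and the chaperone calnexin (CANX) by 0.90 ± 0.09. PSMB8, a catalytic subunit of the immunoproteasome, fell from 232, 233 and 238 to 172, 178 and 172 CPM (log2 -0.43 ± 0.07, adjusted p = 0.000165). PSMB10 and PSME2 were the other class I genes that fell. Class II genes rose in 9 of 13 tested of 15 and none fell. HLA-DRA was at 3.09, 3.23 and 3.27 CPM in controls and 7.54, 7.52 and 6.76 CPM with the siRNA (2.27-fold, adjusted p = 1.04e-06), and HLA-DOB and HLA-DMB rose by 0.86 ± 0.13 and 0.80 ± 0.11. The class II transactivator CIITA, named after its value was seen, did not differ beyond the spread (0.02 ± 0.12, adjusted p = 0.922). Reads of HLA genes, HLA-G among them (1.10 ± 0.26), can be shared between near-identical copies. The leukocyte markers summed somewhat higher beside these lists, as given above, with the B cell marker MS4A1 and the NK cell marker NKG7 at 0, but of the 7 that could be tested 2 rose (CD4 and CD14) and 3 fell (CD8A, ITGAM and LYZ), and their part was not tested.

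Chemokines and interleukins split by member. Of 16 tested chemokines of 24 listed 9 rose and 3 fell. CXCL10, which draws T cells through CXCR3, had 123, 99.8 and 95.7 CPM in controls and 660.3, 664 and 526 CPM with the siRNA, 5.8-fold more (log2 2.54 ± 0.12, adjusted p = 2.24e-09). CXCL9, a second ligand of that receptor, rose from 0.519, 0.356 and 0.554 to 3.57, 3.47 and 3.02 CPM (6.82-fold, adjusted p = 6.4e-08). CXCL2, which draws neutrophils, rose from 16.5, 12.5 and 15.3 to 42.4, 57.2 and 54.1 CPM (3.46-fold). CCL5, which draws T cells and monocytes, fell from 48.2, 50.4 and 49.7 to 20.7, 21.5 and 20.4 CPM, 2.36-fold (adjusted p = 1.76e-08), with no overlap. Of the interleukins and colony-stimulating factors 5 of 18 tested rose and 8 fell. IL1A rose from 6.26, 3.91 and 4.22 to 18.8, 21.6 and 20.7 CPM (4.22-fold), and IL36RN, an antagonist of the interleukin-36 receptor, fell by 1.89 ± 0.22 on the log2 scale. IL36G rose on few reads, 8, 3 and 8 against 10, 32 and 30.

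Among TNF superfamily genes 12 of 26 tested rose and 6 fell. TNFSF14 (LIGHT), a ligand of the lymphotoxin-β receptor and HVEM, was at 4.32, 3.91 and 5.19 CPM in controls and 33.9, 32.9 and 37.4 CPM with the siRNA, 7.7-fold higher (log2 2.94 ± 0.11, adjusted p = 2.84e-10). TNFSF13B (BAFF), a B cell survival factor, rose by 1.42 ± 0.11. TNFRSF12A, the receptor of TWEAK, fell (-0.75 ± 0.08). NF-kB subunits and feedback genes had 14 rises and 2 falls among 22 members (median 0.43). The feedback inhibitor TNFAIP3 (A20) rose from 126, 101.2 and 100.3 to 287, 335 and 312 CPM (2.85-fold, adjusted p = 3.74e-08). The subunit genes REL and NFKB1 rose by 1.01 ± 0.14 and 0.98 ± 0.09, while TNIP2, a partner of A20, fell (-0.80 ± 0.08). Complement and coagulation regulators gave 17 rises and 2 falls out of 22 (median 0.63). C3, the central component, went from 1130, 1194 and 950.3 to 2711, 3283 and 2999 CPM (2.75-fold, adjusted p = 1.68e-07). C4A and C4B, near-identical copies whose reads cannot be told apart with certainty, were at 1.80 ± 0.19 and 1.73 ± 0.12, and CFD (factor D) fell by 0.81 ± 0.19 on the log2 scale.

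**Figure D4:**
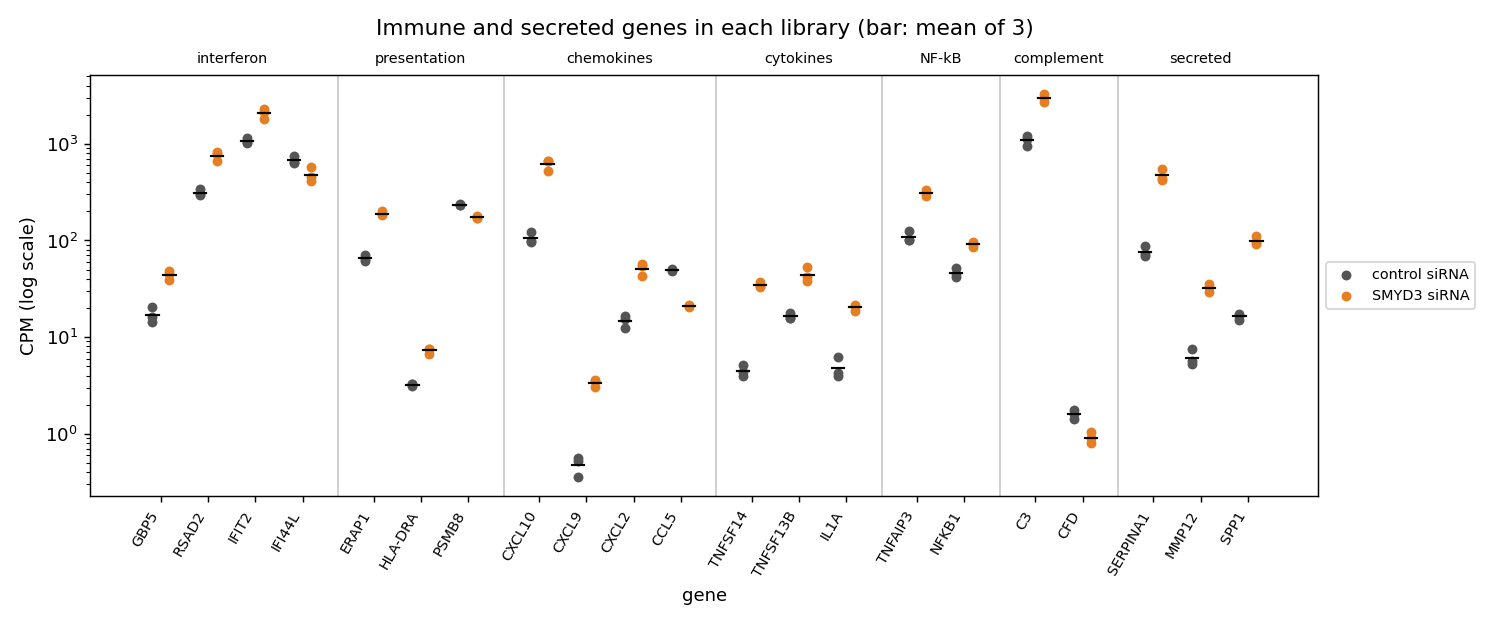
Points are CPM in each library on a log axis, grey for the 3 control libraries and orange for the 3 SMYD3 siRNA libraries, with a bar at each mean; genes are grouped by role. The siRNA libraries lie above the controls except for IFI44L, PSMB8, CCL5 and CFD, where they lie below.

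Promoters of the immune lists held the elements for which the lists are known. GAAA followed after any 2 bases by GAAA, the ISRE core, was present in 63.8% of the 47 interferon effectors with an entry, against 3.65% of all promoters (51.1% against 2.44% in the shorter window). GGGA followed after any 4 bases by CC, a loose form of the NF-kB site, was present in 69.2% of the 13 chemokines and in 63.2% of the 19 NF-kB genes, against 25.1% of all promoters. Over all genes that rose the share was 32.4%, and over all that fell 31.7%. Among interferon effectors with an entry and an ISRE match, OAS3 (0.90 ± 0.09) and GBP1 (0.83 ± 0.09) had the largest rises. GBP5, RSAD2 and IFIT2 rose more but lacked an entry or a match, and which was missing is not given here. Only 47 of the 62 effectors had an entry. Among chemokines with an entry and a kappaB match, CXCL10 and CXCL2 had the largest rises. CXCL9 rose more than these but likewise lacked an entry or a match. The promoters of OAS3, GBP1, CXCL10 and CXCL2, picked after values were seen, are shown next. They lie at chr12:112938224-112938523 (plus strand) for OAS3, chr1:89065159-89065458 (minus strand) for GBP1, chr4:76023448-76023747 (minus strand) for CXCL10 and chr4:74099146-74099445 (minus strand) for CXCL2. Capitals mark matches to either motif, and in OAS3 and CXCL2 the kappaB matches overlap each other on the 2 strands.
OAS3: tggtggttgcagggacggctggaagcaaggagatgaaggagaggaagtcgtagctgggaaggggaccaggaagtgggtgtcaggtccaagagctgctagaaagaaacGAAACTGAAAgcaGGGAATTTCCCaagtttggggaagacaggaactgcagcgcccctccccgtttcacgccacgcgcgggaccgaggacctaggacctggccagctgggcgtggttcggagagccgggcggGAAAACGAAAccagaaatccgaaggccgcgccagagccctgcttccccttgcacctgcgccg
GBP1: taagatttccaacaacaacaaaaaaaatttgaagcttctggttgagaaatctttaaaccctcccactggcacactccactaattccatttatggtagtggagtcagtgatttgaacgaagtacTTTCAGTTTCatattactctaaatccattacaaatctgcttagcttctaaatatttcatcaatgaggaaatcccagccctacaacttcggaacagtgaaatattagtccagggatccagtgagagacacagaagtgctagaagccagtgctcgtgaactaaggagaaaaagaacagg
CXCL10: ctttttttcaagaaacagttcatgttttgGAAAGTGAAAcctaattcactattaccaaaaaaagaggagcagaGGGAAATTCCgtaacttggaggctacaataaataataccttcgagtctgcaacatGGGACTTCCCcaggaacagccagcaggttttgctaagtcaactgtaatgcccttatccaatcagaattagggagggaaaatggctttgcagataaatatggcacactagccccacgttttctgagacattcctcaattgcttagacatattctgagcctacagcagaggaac
CXCL2: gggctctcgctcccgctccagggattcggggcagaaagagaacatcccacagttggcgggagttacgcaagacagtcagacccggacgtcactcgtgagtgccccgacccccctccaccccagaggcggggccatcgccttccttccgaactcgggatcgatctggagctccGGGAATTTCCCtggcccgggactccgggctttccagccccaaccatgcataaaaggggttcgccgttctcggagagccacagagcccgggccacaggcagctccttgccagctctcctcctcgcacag

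Cell death genes moved both ways: caspases, gasdermins and necroptosis genes were 6 higher and 7 lower of 21, and BCL2 family genes 4 higher and 5 lower of 15. The inflammasome adaptor PYCARD fell from 27.8, 31.1 and 28.8 to 12.8, 16.1 and 15 CPM (2-fold), GSDME, a pore-forming gasdermin, changed by -0.94 ± 0.08, and RIPK1 rose by 0.77 ± 0.07. Checkpoint ligands and immune modulators had 8 rises and 3 falls among 21 members. NT5E (CD73), which makes adenosine, fell from 82.8, 75.3 and 68 to 29.3, 26.1 and 25 CPM, 2.81-fold (adjusted p = 2.13e-08), and ULBP2, a ligand of the NK cell receptor NKG2D, by 1.09 ± 0.11 on the log2 scale.

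Growth signalling lists held large changes at single members. AP-1 and early response factors gave 15 rises and 4 falls out of 23. FOS went from 1211, 1336 and 1387 to 2498, 2766 and 2664 CPM (2.02-fold, adjusted p = 1.18e-06), EGR3 rose by 2.12 ± 0.15 and EGR2 by 1.21 ± 0.09, while FOSL1 fell (-0.87 ± 0.09). In the ERK pathway list 12 of 27 rose and 8 fell, and with library totals 7 rose and 10 fell: the feedback inhibitor SPRY1 rose by 1.65 ± 0.08, and SPRED2 and the ETS factor ETV4 fell (-1.17 ± 0.08 and -1.99 ± 0.16). The EGF receptor ligands EREG, EPGN and HBEGF rose by 1.36 ± 0.15, 1.56 ± 0.18 and 1.00 ± 0.11, and the receptor ERBB3 fell (-0.30 ± 0.07). Other growth factor genes included IGFBP3 and IGFBP7, binding proteins of the insulin-like growth factor system, which rose 2.5-fold and 2.66-fold, and FGFBP1, a carrier of FGF, which was 2.64-fold lower. In the TGF-β and BMP list 13 of 31 rose and 7 fell, with the target ID2 up from 9.73, 14 and 14.2 to 48.4, 47.2 and 44.4 CPM. Wnt genes rose in 7 and fell in 12 of 29, with the ligand WNT5B and the transcription factor TCF7 at -1.15 ± 0.14 and -1.12 ± 0.11 and RNF43, which removes Wnt receptors, up by 1.39 ± 0.08. Hippo and YAP targets rose in 10 and fell in 6 of 24 (9 and 9 with library totals), with AMOTL2 up by 1.22 ± 0.10.

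Keratins fell and genes of the matrix and its receptors rose. The epithelial markers that summed lower include keratins. Keratins fell in 11 of 16 tested of 21 and rose in 1 (median -0.50). KRT18, a keratin of simple epithelia, was at 1548, 1750 and 1737 CPM in controls and 681, 921 and 862 CPM with the siRNA, 2.04-fold lower (adjusted p = 4.22e-06). KRT81, a hair keratin, went from 867, 980.1 and 890 to 304, 406 and 441 CPM (2.38-fold lower, adjusted p = 1.18e-06). KRT6A was the member that rose (0.37 ± 0.12). It has near-identical copies, and its call was lost with library totals (0.24, adjusted p = 0.109) and without control replicate 1. E-cadherin (CDH1), by contrast, rose from 346, 328 and 295 to 728, 833 and 798 CPM (2.44-fold, adjusted p = 7.61e-08). Hemidesmosome, laminin and integrin genes had 14 rises and 1 fall among 25 members. COL17A1, the hemidesmosome collagen, rose from 73.3, 92.3 and 81.4 to 212, 227 and 239 CPM (2.75-fold), ITGB8 rose 2.99-fold, and ITGB5 was the member that fell (-0.88 ± 0.10).

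Of the mesenchymal and collagen genes 24 of 41 tested rose and 9 fell. COL12A1, a collagen that decorates fibrils, was at 96.9, 93.2 and 88.4 CPM in controls and 538, 586 and 509 CPM with the siRNA, 5.86-fold higher (log2 2.55 ± 0.09, adjusted p = 2.84e-10). The proteoglycan gene LUM, also in the fibroblast list, rose from 45, 53.5 and 53.6 to 119, 132 and 112 CPM (2.38-fold). COL3A1, the fibrillar collagen of fibroblasts, had 0, 0 and 1 reads in the controls and 19, 24 and 19 with the siRNA, and COL13A1 fell by 1.95 ± 0.22 on the log2 scale. The 9 fibroblast markers, none of them at 0, summed higher, as given above. They share LUM and COL3A1 with this list, so their sum is not separate from it. Their part in it was not tested. Proteases and inhibitors gave 20 rises and 7 falls out of 38. SERPINA1 (alpha-1-antitrypsin) rose from 87.9, 72.6 and 69.7 to 447, 554 and 425 CPM (6.19-fold, adjusted p = 1.57e-09), and the elastase MMP12 from 7.55, 5.22 and 5.62 to 35.6, 32.7 and 29 CPM (5.26-fold). SERPINB5 (maspin) fell (-0.86 ± 0.09). Differentiation genes of the cornified envelope had no common direction, 7 higher and 6 lower of 23, with 19 of 42 below the read filter. CALML5 fell 5.53-fold, and FLG (filaggrin) rose from 0.166, 0.119 and 0.179 to 2.24, 1.57 and 2.40 CPM. FLG overlaps FLG-AS1, which rose 11.6-fold, and the strand used in counting is not stated, so their reads cannot be told apart with certainty. Among squamous lineage and junction genes OVOL2, a repressor that holds the epithelial state, fell 4.32-fold, and SOX2 and the gap junction gene GJA1 rose 2.51-fold and 2.95-fold.

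Lysosome and stress response genes rose. Of 33 lysosome and autophagy genes 25 rose and 1 fell (median 0.44). LAMP1, the main glycoprotein of the lysosomal membrane, went from 469.5, 480.5 and 419.5 to 866, 1074 and 986 CPM (2.14-fold, adjusted p = 6.5e-07). ATP6V1A, a subunit of the proton pump, rose 2.14-fold, and ATG5 fell (-0.35 ± 0.07). Integrated stress and unfolded protein response genes had 23 rises and 3 falls among 34 members, and 15 were higher with library totals. HSP90B1 (GRP94) went from 2273, 2224 and 2265 to 4883, 4873 and 4885 CPM (2.17-fold) and PDIA6 rose 2.06-fold. HSPA5 (BiP), the chaperone of the same compartment, was called lower at -0.26 ± 0.09 (adjusted p = 0.0241), a call that was lost when any of 4 of the 6 libraries was left out. ATF4 was at -0.06 ± 0.08 (adjusted p = 0.56) and ASNS, its target, at -0.04 ± 0.08 (adjusted p = 0.699), both named after their values were seen. NRF2 antioxidant targets gave 16 rises and 3 falls out of 25, with the cystine carrier SLC7A11 up from 8.59, 6.34 and 6.55 to 25.2, 23 and 23.5 CPM (3.32-fold) and AKR1B10 up 2.78-fold. Aryl hydrocarbon receptor and xenobiotic genes had 11 rises and 4 falls among 18 members, with CYP1B1 up 2.5-fold and RDH10, which makes retinal, down 2.6-fold. UGT1A6 (1.63 ± 0.12) and AKR1C2 (1.53 ± 0.11) share exons or sequence with relatives and are uncertain.

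Among metabolic lists the hypoxia response gave 12 rises and 3 falls out of 23, with 7 higher when library totals were used. Its largest rise was SLC2A3 (GLUT3), a neuronal-type glucose carrier, at 1.08, 1.36 and 1.31 CPM in controls and 11, 10.4 and 11 CPM with the siRNA (8.68-fold, adjusted p = 5.66e-10). DDIT4, an inhibitor of mTORC1, fell (-0.39 ± 0.08). Glycolysis and pentose phosphate genes were 10 higher and 6 lower of 27, sterol genes 11 and 6 of 30, and fatty acid and phospholipid genes 15 and 9 of 39. With library totals each balance turned, to 6 higher and 8 lower for glycolysis, 8 and 9 for sterol and 10 and 12 for fatty acid genes. MSMO1, a sterol oxidase, fell 2.69-fold while the cholesterol exporter ABCA1 rose 2.2-fold. CD36, a scavenger receptor that takes up fatty acids, rose from 1.76, 1.19 and 1.84 to 13.6, 9.74 and 12.5 CPM (7.32-fold, adjusted p = 1.12e-08).

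Lists of RNA and protein production did not share a direction: ribosomal, splicing and proteasome genes fell more often than they rose, and aminoacyl-tRNA synthetases and nuclear pore genes rose more often. No cytosolic ribosomal protein gene rose and 32 of 75 fell, with a shallow median of -0.19, and 54 fell with library totals. RPS25 had the largest fall, from 138, 130.2 and 144 to 75, 74.3 and 71.1 CPM (1.87-fold, adjusted p = 2.29e-07). These genes took 1.73% to 1.83% of reads in the controls and 1.39% to 1.49% with the siRNA, with no overlap; an exact permutation test gave p = 0.10, the lowest that 3 against 3 allows. Ribosome biogenesis genes fell in 18 of 38 and rose in 1, with RRS1, needed for the large subunit, 2.53-fold lower, and 28 were lower with library totals. Splicing factors fell in 22 of 43 and rose in 5: HNRNPD, which binds AU-rich RNA, went from 419, 426 and 485 to 199, 183 and 199 CPM (2.29-fold lower), and SF3A1 rose by 0.69 ± 0.09. Proteasome genes fell in 13 of 31 and rose in 3, and nuclear-encoded respiratory chain genes fell in 14 of 38 and rose in 6 (20 proteasome genes lower, and 23 respiratory chain genes lower and 1 higher, with library totals). Aminoacyl-tRNA synthetases, which load transfer RNAs, rose in 9 of 20 with 3 lower, EPRS and AARS up by 0.56 ± 0.08 and 0.52 ± 0.08, but with library totals 7 were higher and 6 lower. Chaperones were 8 higher and 7 lower of 29, and 3 and 11 with library totals. Nuclear pore and transport genes had 18 of 36 higher and 5 lower, led by the import receptor TNPO1 (2.31-fold). Mitochondrially encoded genes took 6.63%, 7.35% and 10.2% of reads in the controls and 5.73%, 5.94% and 6.78% with the siRNA, groups that overlapped (exact permutation p = 0.20). 4 of the 13 were called lower, and without control 3 the calls of MT-CO2 (-0.31, adjusted p = 0.124) and MT-ND4 (-0.29, adjusted p = 0.127) were lost, as they were without siRNA replicate 1 or 2 and with DESeq2.

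The largest changes lay partly outside these lists. RPS6KL1, a kinase-like gene, fell the most among genes with a mean log2 CPM of at least 1: 16.3, 17.9 and 17.4 CPM in controls and 1.41, 1.66 and 1.90 CPM with the siRNA, 10.3-fold (adjusted p = 2.84e-10), a larger change than that of SMYD3. Others among the 15 largest falls were PLA2G2F, a secreted phospholipase (7.21-fold lower), NKX1-2, a homeobox gene (7.03-fold), ANKRD29 (5.87-fold), PADI3, which citrullinates proteins (5.76-fold), CREB5 (5.61-fold) and the chloride channel ANO1 (4.52-fold). The largest rise under the same minimum was ICAM4, an adhesion molecule of red cells, from 0.643, 0.326 and 0.465 to 6.34, 10.2 and 9.69 CPM (17.7-fold, adjusted p = 1.75e-08). SPP1 (osteopontin) went from 15.1, 16.7 and 17.4 to 95.8, 110 and 91.2 CPM (6.03-fold). The long noncoding RNA LINC02015 rose 6.39-fold, the meiotic gene SHOC1 5.74-fold, coagulation factor F5 5.53-fold, PLCXD3 5.44-fold and the inositol carrier SLC5A3 4.99-fold. In each of the 15 largest rises and 15 largest falls, groups without overlap were part of the rule that chose them.

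The ASO also lowered SMYD3, and a fit over the 16 libraries of the 3 count tables compared the effects. SMYD3 changed by -2.39 ± 0.11 with the siRNA and -2.51 ± 0.14 with the ASO, a difference of 0.12 ± 0.18 that was not called (adjusted p = 0.702). Over 21106 genes the siRNA effect was higher than the ASO effect in 3268 (15.5%) and lower in 3498 (16.6%). In this fit the siRNA called 23.4% of genes higher and 21.3% lower and the ASO 6.21% and 3.72%, with 2 libraries a group for the ASO in place of 3. The mitotic lists parted the 2 reagents. With the ASO no spindle motor or kinetochore gene fell, and the siRNA effect was below the ASO effect in 25 of 31 and 19 of 34. MAD2L1 changed by 0.08 ± 0.11 with the ASO, a difference of -2.82 ± 0.19 (adjusted p = 8.95e-12). UHRF1 rose with the ASO, by 0.37 ± 0.11 (adjusted p = 0.0208), and the siRNA effect differed by -2.04 ± 0.16 (adjusted p = 9.29e-11). Interferon effectors rose more with the ASO: 59 of 62 were higher with it (median 0.88), and the siRNA effect was lower in 44 and higher in 2. RSAD2 changed by 3.13 ± 0.11 with the ASO, a difference of -1.84 ± 0.13 (adjusted p = 8.95e-12). CXCL10 rose with both, by 3.47 ± 0.18 with the ASO and 2.56 ± 0.11 with the siRNA (difference -0.91 ± 0.22, adjusted p = 0.00284).

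Lists outside immunity and mitosis differed as well. The siRNA effect was above the ASO effect in 24 of 33 lysosome genes and below it in 1, and above it in 15 of 25 hemidesmosome and integrin genes. It was below the ASO effect in 10 of 17 keratins, 29 of 38 ribosome biogenesis genes and 35 of 75 ribosomal protein genes. COL12A1, SERPINA1, C3, RPS6KL1 and HMGA1, which moved with the siRNA, were not called with the ASO: their ASO changes were -0.05 ± 0.08, -0.10 ± 0.12, 0.16 ± 0.10, -0.11 ± 0.10 and 0.19 ± 0.14. Each of the 5 differences was called, at 2.62 ± 0.11, 2.75 ± 0.15, 1.32 ± 0.13, -3.24 ± 0.15 and -1.81 ± 0.18. The control of the ASO was PBS and that of the SMYD3 siRNA a control siRNA, so reagent class, control and delivery cannot be told apart.

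**Figure D5:**
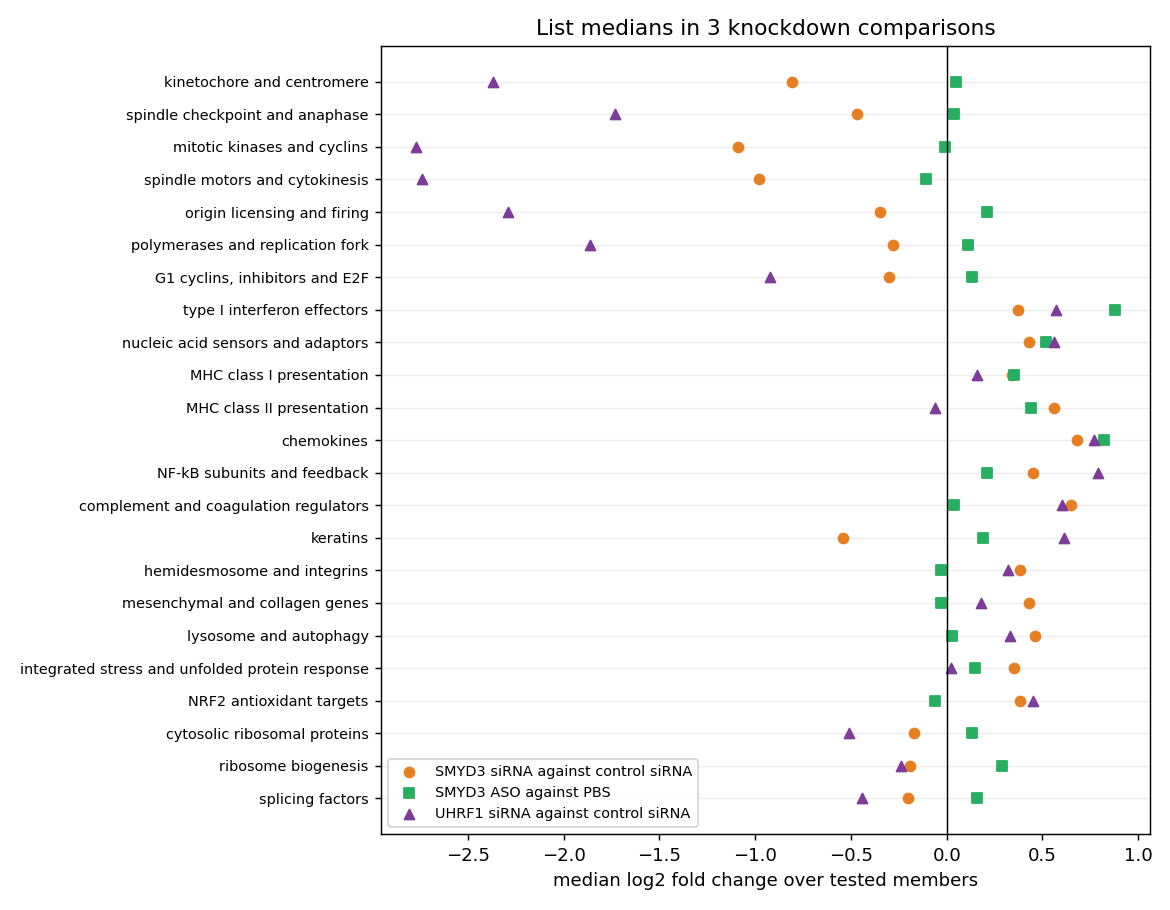
Each row is a gene list and each symbol the median log2 fold change over its tested members (x axis) in the joint fit: SMYD3 siRNA (orange circles), SMYD3 ASO (green squares) and UHRF1 siRNA (purple triangles), each against its own control. In the 4 mitotic lists the ASO medians lie between -0.11 and 0.05, the SMYD3 siRNA medians between -1.09 and -0.47 and the UHRF1 siRNA medians between -2.77 and -1.73.

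The UHRF1 siRNA lowered the mitotic lists by a larger fold against its own control. Against a background of 29.3% of genes lower, it lowered 27 of 27 mitotic kinase and cyclin genes (median -2.77), and the SMYD3 siRNA effect was higher than its effect in 27 of 27. Over all genes the SMYD3 siRNA effect was higher in 25.1% and lower in 23.8%. The control libraries stood at different levels. In CPM over the genes shared by the tables, mitochondrial genes left out, the 115 mitotic genes summed to 2839 to 3589 in the control siRNA libraries of the SMYD3 comparison, 10380 to 10661 in PBS and 9414 to 9924 in the control siRNA libraries of the UHRF1 comparison. They summed to 2190 to 2213 with the SMYD3 siRNA and 2299 to 2399 with the UHRF1 siRNA. UHRF1 itself was at 9.54 to 12.8 in the first control group, against 46.2 to 47.4 in PBS and 64.2 to 68.3 in the other siRNA control. The tables were counted separately, so these levels also carry any difference in their processing. The part of the control level in the contrasts was not tested. Keratins separated the 2 siRNAs: 12 of 17 rose with the UHRF1 siRNA, which called 29.3% of all genes higher, and the SMYD3 siRNA effect was lower in 12. CCL5 rose by 3.86 ± 0.09 with the UHRF1 siRNA and by 1.19 ± 0.10 with the ASO, while it changed by -1.22 ± 0.08 with the SMYD3 siRNA (differences -5.08 ± 0.12 and -2.42 ± 0.13, adjusted p = 1.37e-22 and 9.68e-14).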

How the data were processed

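RNA from HN-6 cells was sequenced from stranded mRNA libraries, per the labels. The authors deposited 1 table of raw read counts per gene for each comparison, with reads assigned on hg38 and bcl2fastq and Bowtie named, per the submitters' processing notes. The counter, its strand setting and all versions: not given in the sources used here. Library totals were 32441991 to 54121262 reads. The standard errors and adjusted p rest on the spread between replicates as well as on counting error.

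Lines of 1 symbol were summed, and lines without a symbol (0.849% to 0.917% of reads) were named from GENCODE 29 by identifier where it held them. Genes were kept by filterByExpr, scaled by TMM and tested with edgeR 4.0.16 (quasi-likelihood F-test, robust) in R 4.3.3, comparing 3 SMYD3 siRNA with 3 control libraries. Benjamini-Hochberg adjustment ran over all genes tested in a fit. Adjusted p for the contrasts and for other scalings come from the same test in fits of their own. The contrasts with the ASO and UHRF1 siRNA came from 1 edgeR fit over 16 libraries, each effect against its own controls. Mitochondrial genes, listed at 0 in the ASO and UHRF1 tables, stayed in this fit, and no contrast of theirs is given. Values after ± are approximate standard errors for log2 changes, taken as the size of the change divided by the square root of its F statistic. CPM are TMM-scaled. Promoter sequences are RefSeq's (GRCh38.p14).

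In simulated data of 18666 genes, 50 were changed by 0.5, 98 by 1 and 50 by 2 on the log2 scale. The test called 60%, 84.7% and 100% of these, with 9 false calls among unchanged genes. Far fewer genes were changed than were called in the data, so these rates may not hold for the data. Alternatives were DESeq2 1.42.0, upper quartile factors, no filter, no mitochondrial genes, a replicate block, each library left out and, added after seeing the data, library totals. Named genes were SMYD3 and UHRF1, in each list the 3 called members with the largest change plus the largest called against the list's median, and the 15 largest rises and falls with a mean log2 CPM of at least 1 and no overlap. Members and lists were chosen with earlier results of these data known. A table of a knockout clone was not used here, and some named genes are not reported here.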

Additional observations from a re-analysis of the deposited data

Results flagged for a closer look

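In the joint fit 30 of the 261 named genes were called in opposite directions by the SMYD3 siRNA and the SMYD3 ASO, with the difference itself called (edgeR, adjusted p from 9.68e-14 for CCL5 to 0.000151 for TMEM173). Over all 21106 genes of that fit 703 (3.33%) met the same criteria. The named genes were picked for called siRNA changes in these libraries, so the counts cannot be compared as evidence. The values that follow are the siRNA effect minus the ASO effect on the log2 scale, each effect taken against its own controls.

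Among genes of DNA replication and its partners, UHRF1 differed by -2.04, RPA2 by -1.84 and MCM10 by -1.42, all lower with the siRNA and higher with the ASO. Genes of ribosome assembly and protein quality control differed the same way: RRS1 by -1.93, NOP16 by -1.17, GNL3 by -0.92, the chaperones HSPE1 and HSPA5 by -1.16 and -0.60, and the proteasome subunit PSMD11 by -0.72. The HSPA5 and TMEM173 calls of the siRNA fit were lost when single libraries were left out.

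Immune genes that fell with the siRNA and rose with the ASO were CCL5 (-2.42), NT5E (-2.0), TNFRSF12A (-1.10), IFI44L (-1.07), PSMB8 (-0.96) and TMEM173 (-0.60). Early response factors were split: EGR3 (3.36), EGR2 (1.88) and FOS (1.62) rose with the siRNA and fell with the ASO, whereas FOSL1 (-1.32) did the reverse. ETV4 (-2.29), from the ERK pathway list, also fell with the siRNA and rose with the ASO. In the cell death lists BMF, a BH3-only protein, differed by 1.09 and BIK, another, by -0.97. Epithelial genes that fell with the siRNA and rose with the ASO were CALML5 (-3.39) and SERPINB5 (-1.44).

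The phospholipase-like gene PLCXD3 differed by 3.68, AKR1B10 by 2.05, CYP1B1 by 1.89, the TGF-β co-receptor TGFBR3 by 1.54 and the phosphatase PTPN14 by 1.29, all higher with the siRNA. The mTORC1 inhibitor DDIT4 differed by -1.18. The ASO arm had 2 libraries a group, and its control was PBS.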

How the results depend on the processing

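The call of SMYD3 held under every alternative run, and its log2 change stayed between -2.49 and -2.33 when single libraries were left out. Of 261 named genes 248 were called under each of the 12 alternatives that tested them, 13 lost the call at least once and 0 changed direction. The genes called higher and lower were 4372 and 4025 with DESeq2, 4172 and 5105 with upper quartile factors, 4447 and 4863 with no filter, and 4598 and 4622 without mitochondrial genes. Leaving out single libraries gave 3906 (without control 3) to 4849 (without siRNA 1) higher and 3647 (without siRNA 3) to 4434 (without control 1) lower. It gave 2654 to 3409 genes with a higher and 2783 to 3573 with a lower siRNA than ASO effect, and without mitochondrial genes these were 3171 and 3597. No label states that equal replicate numbers are paired, although the library names of control and siRNA are consecutive within each number. Same-numbered libraries correlated at 0.23, 0.23 and -0.01 in their deviations from the group means, and not every library was closest to its own number, although the second principal component separated the numbers. With the replicate block 4735 genes were higher and 4763 lower, and each of the 261 named genes kept its call. Library totals in place of factors, chosen after seeing the data, left 3 lysine demethylases, 7 hypoxia genes and 15 stress response genes higher, and the cause was not tested beyond the shift of -0.13 in the median of all genes. They also left fewer members higher in the lists of condensin and cohesin (4), replication fork (2), nucleotide supply (3), recombination (4), Wnt (4) and splicing (3), and more lower in DNA methylation (12), other methyltransferases (10), TNF superfamily (10), complement (4) and proteases (12). Under them the medians of 12 lists within 0.12 of 0 changed sign. Depth limits the genes with few reads (COL3A1, IL36G, TLR7, FLG).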
